A study of Mus musculus with 2 samples.

Results

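The Mir200 family consists of 5 microRNA genes in the mouse, Mir200b, Mir200a and Mir429 on chromosome 4 and Mir200c and Mir141 on chromosome 6. They were chosen by name, with no threshold on their values, and were 5 of the 2202 microRNA genes counted in this series. The series holds 1 group of 2 small RNA libraries, replicate 1 and replicate 2, made from adult female mouse heart, age 8 to 10 months, with the strain label 5xFAD/CAST. 5xFAD mice carry mutant human transgenes of amyloid precursor protein and presenilin under a neuronal promoter. CAST stands for a wild-derived inbred strain. Both libraries carry the same strain label, and no control group was analysed here. The 2 libraries share a donor identifier but have separate biosample and biological replicate labels, so the number of animals is not known. The SDs over n = 2 are over libraries, differences between them can be technical, and every p-value below compares these libraries only and no condition.

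MicroRNAs of this family are known as guardians of the epithelial state. They repress Zeb1 and Zeb2, transcription factors that silence E-cadherin, and Zeb1 and Zeb2 in turn silence both Mir200 clusters. Epithelia of the kidney, gut, lung and glands make the family abundantly, whereas mesenchymal cells and muscle make little of it, so heart muscle is not a tissue in which it is known to be high.

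The family falls into 2 groups by its seed, bases 2 to 8 of the mature microRNA, which pair with target messages. The 5 mature 3p sequences are shown because the seed decides which targets are shared and the bases after it decide whether a read can be assigned to 1 locus. They are given 5′ to 3′ as RNA from RefSeq (build GRCm38.p6), which held all 5 members, with the seed in capitals.
miR-200b-3p: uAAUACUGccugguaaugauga
miR-429-3p: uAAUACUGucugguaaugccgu
miR-200c-3p: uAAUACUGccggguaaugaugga
miR-200a-3p: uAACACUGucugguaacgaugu
miR-141-3p: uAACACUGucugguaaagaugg

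Mir200b, Mir200c and Mir429 share the seed AAUACUG, and no other of the 1738 mature sequences in the RefSeq table had it. Mir200a and Mir141 share AACACUG, again with no further gene. Counted from 1 at the 5′ end, the seeds differ by the substitution U4C from miR-200b-3p to miR-200a-3p. Each seed group has members in both clusters, so the grouping by seed crosses the grouping by locus. Within a seed group the 3p sequences are close. From miR-200b-3p to miR-200c-3p, 20 of 22 positions were identical and the substitutions were U11G and A22G. From miR-200a-3p to miR-141-3p, 20 of 22 were identical with C17A and U22G. The longest run that miR-200a-3p shared with another hairpin was 16 bases, in Mir141, and for miR-200b-3p it was 10 bases, in Mir200c. A read that starts at the 5′ end of miR-200a-3p or miR-141-3p therefore matched 1 hairpin of the table from 17 bases on, and a read of miR-200b-3p or miR-200c-3p from 11 bases on. Reads that fit several loci were left unassigned in these tables, and by this comparison reads of the full mature length were distinct for each of the 5 genes.

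Counts were per gene, so reads of the 5p and 3p arms of a hairpin were added together. The hairpins of the gene with the highest mean level in each cluster are shown with both mature arms in capitals, as the stretch in which reads were counted.
Mir200b hairpin: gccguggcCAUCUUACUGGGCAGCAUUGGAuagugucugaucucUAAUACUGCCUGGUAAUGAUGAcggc
Mir200c hairpin: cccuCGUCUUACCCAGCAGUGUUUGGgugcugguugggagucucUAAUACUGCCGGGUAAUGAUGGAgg

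On build mm10 all 5 genes lie on the minus strand. Mir200b (ENSMUSG00000065549) is at chr4:156055681-156055750, Mir200a (ENSMUSG00000065400) at chr4:156054896-156054985 and Mir429 (ENSMUSG00000065427) at chr4:156053905-156053987. The 3 genes span 1846 bases, with gaps of 695 and 908 bases. All 3 lie inside introns of Ttll10, a protein-coding gene of the same strand. They also lie inside the noncoding gene Gm13648, in its intron for Mir200b and Mir200a and wholly within an exon for Mir429. Mir200c (ENSMUSG00000065462) is at chr6:124718322-124718390 and Mir141 (ENSMUSG00000065474) at chr6:124717914-124717985, 336 bases apart in a span of 477 bases. Both lie in introns of the noncoding gene Gm15884, and Mir141 partly overlaps an exon of the unclassified transcript Gm29008.

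**Figure D1:**
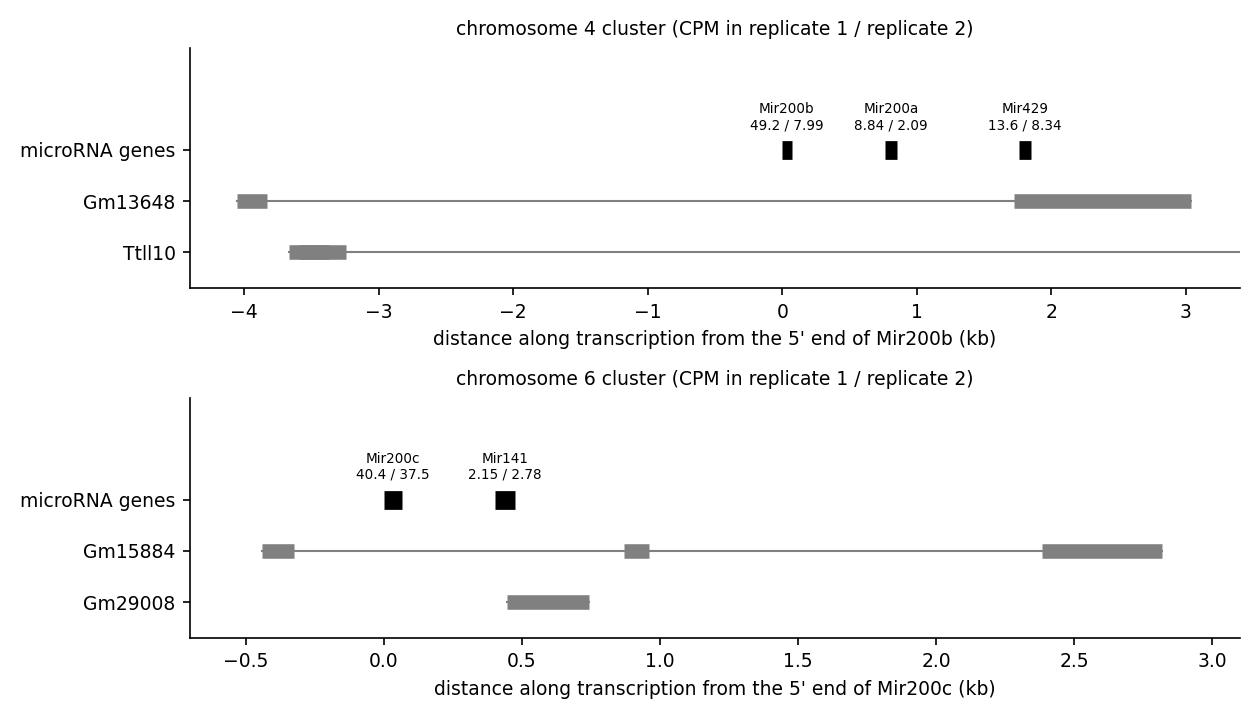
Both Mir200 clusters drawn along the direction of transcription, with distance in kb from the 5′ end of Mir200b (top) or Mir200c (bottom). Black boxes are the microRNA genes with their CPM in replicate 1 / replicate 2, grey lines are overlapping annotated genes (Ttll10 continues to the right) and grey boxes their exons. Mir429 sits in an exon of Gm13648, while Mir200b, Mir200a and Mir200c touch no exon.

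MicroRNA genes received 4186560 reads in replicate 1 and 2877511 in replicate 2, and levels are given as counts per 1000000 of these (CPM). One read was worth 0.239 CPM in replicate 1 and 0.348 in replicate 2, and the upper limit behind a count of 0, set at 3 counts, was 0.717 and 1.04 CPM. The labelled tissue was checked against 7 heart muscle genes, all of which were detected, led by Mir499, hosted by the myosin gene Myh7b, with 20039 and 10412 counts, and Mir208a, hosted by Myh6, with 6857 and 3091. The lowest were near the limit of detection, Mir1a-1 with 9 and 9 counts, Mir133a-2 with 8 and 7 and Mir133a-1 with 6 and 3. These counts leave out reads that fit several loci, so for such numbered copies they give no total level of the mature microRNA. A gene counted as detected at 1 CPM or more in both libraries, which 380 of the 2202 genes reached.

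All 5 Mir200 genes were detected, at low levels. Together they had 478 counts in replicate 1, or 114 CPM (95% Clopper-Pearson bounds 104 and 125), and 169 in replicate 2, or 58.7 CPM (50.2 to 68.3), a mean of 86.5 ± 39.2 CPM (SD, n = 2). All intervals here describe sampling of reads alone, because PCR copies could not be told from separate molecules. In replicate 1 Mir208a alone had 14.3 times as many counts as the whole family, and in replicate 2 18.3 times. In bulk tissue a smaller number of expressing cells and less RNA per cell cannot be told apart.

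Mir200c, the leading gene of the chromosome 6 cluster, was the member with the smallest absolute log2 ratio between the libraries. It had 169 counts in replicate 1, 40.4 CPM (34.5 to 46.9), and 108 in replicate 2, 37.5 CPM (30.8 to 45.3), a mean of 38.95 ± 2.00 CPM (SD, n = 2). The intervals of the 2 libraries overlapped over most of their width, and Mir200c ranked 183rd and 181st among all genes. Its neighbour Mir141, of the other seed group, was the lowest member by mean level, with 9 and 8 counts, or 2.15 CPM (0.983 to 4.08) and 2.78 CPM (1.20 to 5.48). Mir141 was thus near the limit of detection in both libraries.

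Mir200b, the gene at the 5′ end of the chromosome 4 cluster, was high in replicate 1 and low in replicate 2. It had 206 counts in replicate 1, 49.2 CPM (42.7 to 56.4), and 23 in replicate 2, 7.99 CPM (5.07 to 12.0). The intervals did not overlap, and its rank went from 168 to 267. Mir200a followed the same direction with 37 and 6 counts, or 8.84 CPM (6.22 to 12.2) and 2.09 CPM (0.765 to 4.54), again without overlap of the intervals. Mir429, the last gene of the cluster, had 57 counts in replicate 1, 13.6 CPM (10.3 to 17.6), and 24 in replicate 2, 8.34 CPM (5.34 to 12.4), and its intervals overlapped.

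**Figure D2:**
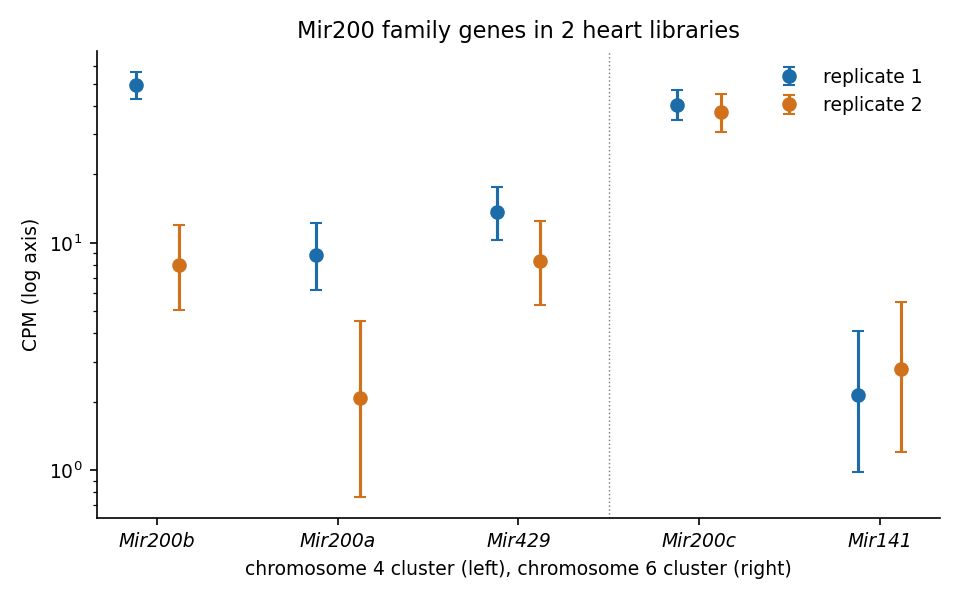
Level in CPM (log axis) of the 5 Mir200 genes in replicate 1 (blue) and replicate 2 (orange), with exact 95% intervals for counting error as bars. Mir200b and Mir200a are separated between the libraries, at 49.2 and 7.99 CPM and at 8.84 and 2.09 CPM, while Mir200c lies at 40.4 and 37.5 CPM.

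The order of the members by level therefore differed between the libraries. In replicate 1 it ran from Mir200b through Mir200c, Mir429 and Mir200a to Mir141. Mir200b was 1.22 times Mir200c (exact 95% interval 0.990 to 1.50), a pair not separated by counting error, and Mir429 was 1.54 times Mir200a (1.00 to 2.40), at the edge of it. The steps from Mir200c to Mir429 (2.96 times, 2.18 to 4.08) and from Mir200a to Mir141 (4.11 times, 1.95 to 9.69) were larger than counting error. In replicate 2 Mir200c led, 4.50 times above Mir429 (2.87 to 7.33). Mir429 and Mir200b were level there (1.04 times, 0.564 to 1.93), Mir200b was 2.88 times Mir141 (1.24 to 7.43), and Mir141 and Mir200a, with 8 and 6 counts, were not separated (1.33 times, 0.406 to 4.66). Taken per kilobase of the annotated gene, the order in replicate 1 stayed as it was, and in replicate 2 Mir200b (114 CPM per kilobase) stood above Mir429 (100.5). Over both libraries the SD of Mir200b, 29.1 CPM, exceeded its mean distance to every other member, so its place in the order was not fixed by these 2 libraries.

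The composition of the family shifted from the chromosome 4 to the chromosome 6 cluster. The chromosome 4 cluster supplied 62.8% of the family's counts (95% Clopper-Pearson bounds 58.3 and 67.1) in replicate 1 but 31.4% (24.5 to 38.9) in replicate 2. Its level was 71.7 CPM (63.8 to 80.2) and 18.4 CPM (13.8 to 24.1) in that order, whereas that of the chromosome 6 cluster was 42.5 CPM (36.5 to 49.2) and 40.3 CPM (33.3 to 48.4). The ratio of chromosome 4 to chromosome 6 counts was 1.69 in replicate 1 and 0.457 in replicate 2, a relative change of 0.272 (exact 95% interval of the conditional odds ratio 0.183 to 0.400). This ratio is taken within each library and does not depend on how the libraries are scaled.

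Grouped by seed, the family showed no such shift. Genes with the seed AAUACUG supplied 90.4% of the family's counts in replicate 1 (87.4 to 92.9) and 91.7% in replicate 2 (86.5 to 95.4). Their summed level was 103 CPM in replicate 1 and 53.9 in replicate 2, and that of the AACACUG genes was 11.0 and 4.87 CPM. In both libraries, then, most Mir200 reads carried the AAUACUG seed, from Mir200b and Mir200c in replicate 1 and mainly from Mir200c, with 63.9% of the family's counts (56.2 to 71.1), in replicate 2.

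Inside the chromosome 4 cluster the members did not change alike. Mir200b had 3.61 times the counts of Mir429 in replicate 1 and 0.958 times in replicate 2, a relative change of 0.267 (exact 95% interval 0.133 to 0.533). Mir200a against Mir429 changed by 0.388 (0.118 to 1.10), and Mir200b against Mir200a by 0.690 (0.250 to 2.21), both with intervals that include 1. Inside the chromosome 6 cluster Mir200c had 18.8 times the counts of Mir141 in replicate 1 and 13.5 times in replicate 2, a relative change of 0.720 (0.238 to 2.22) that also includes 1. With 6 to 9 counts for the lowest genes, these intervals are wide.

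Each gene was then tested for a difference between the libraries by an exact binomial test, two-sided, with TMM-scaled totals. The test allows for counting error alone and not for the spread between libraries. Its p-values were adjusted by Benjamini and Hochberg over the 309 genes that passed edgeR's filter on low counts. That filter asked for enough counts in both libraries, so it depends on the values compared. At an adjusted p under 0.05, 63.4% of those genes differed between the libraries in either direction and 28.2% were lower in replicate 2. Of the 3 Mir200 genes that passed the filter, Mir200b was lower in replicate 2 and Mir429 and Mir200c did not pass the test, so the count of 1 in 3 is near the background. This count leaves out Mir200a, which the filter removed for its 6 counts in replicate 2. The median log2 ratio of the 3 was -0.64, beside 0.01 over all 309 genes. No Mir200 gene was higher by this test, at an adjusted or an unadjusted p under 0.05.

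Mir200b had a log2 ratio of replicate 2 over replicate 1 of -2.55 (exact 95% interval -3.24 to -1.93, adjusted p = 7.26e-23 by the exact binomial test), a 5.86-fold lower level. The median gene tested differed 1.43-fold, and edgeR's common biological coefficient of variation was 0.414. Among the 309 genes, 4 had a lower ratio than Mir200b and 7, or 2.27%, had a larger change in either direction. The filter left out genes low in either library, so larger changes of that kind are missing from these ranks. Among listed genes, Mir9-3 (3 and 63 counts, log2 ratio 5.00) and Mir199a-2 (20 and 2 counts, log2 ratio -2.71) were left out. Mir429 had a log2 ratio of -0.64 (-1.39 to 0.08, adjusted p = 0.104 by the exact test), and 40.8% of the genes changed more. With DESeq2's size factors in place of TMM, which lower the median log2 ratio of all genes from 0.01 to -0.14, Mir429 passed (-0.78, adjusted p = 0.0407 by the exact test), and relative to that median it differed by about as much as before. Under those size factors 55.4% of all calls were lower in replicate 2, against 44.4% with TMM.

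Mir200c had a log2 ratio of -0.03 (-0.40 to 0.32, adjusted p = 0.941 by the exact test), so a difference of more than 1.5-fold lay outside its interval. Among the 309 genes, 94.2% changed more than Mir200c. Mir141, with 9 and 8 counts, fell below the filter, and so did Mir200a, with 37 and 6, because of its low count in replicate 2. When all 709 genes with at least 1 count were tested, 13.5% were lower in replicate 2, and Mir200a was among them with a log2 ratio of -2.01 (-3.55 to -0.75, adjusted p = 0.00185 by the exact test). In that test Mir141 did not pass (log2 ratio 0.44, -1.13 to 1.99, adjusted p = 0.851 by the exact test), and 2 of the 5 members were lower.

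**Figure D3:**
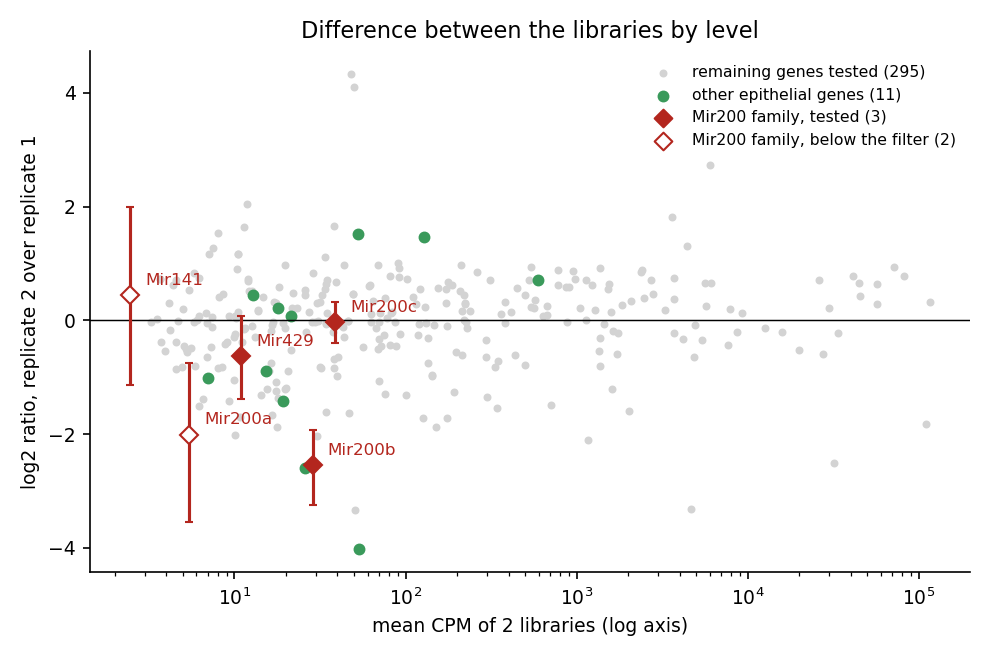
Log2 ratio of replicate 2 over replicate 1 against mean CPM (log axis) for 295 genes tested (grey), 11 other epithelial genes (green) and the 5 Mir200 genes (red, exact 95% intervals as bars, open symbols for the 2 genes below the filter). Mir200b at -2.55 lies near the lower edge of the genes tested and Mir200c at -0.03 on the zero line.

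By distance in log2(CPM + 0.5) over the 2 libraries, among 375 other detected genes, the gene nearest to Mir200b was Mir192, a microRNA of kidney and gut epithelium, with 186 and 20 counts against 206 and 23. The second was Mir340, with 206 and 33 counts. Nearest to Mir200a were Mir323 (38 and 7 counts) and Mir701 (39 and 9), and nearest to Mir429 were Mir6240 (54 and 27) and Mir376a (47 and 25). Mir200c lay nearest to Mir421 (177 and 112 counts) and Mir326 (173 and 98). Mir141 had the same counts as Mir5114, 9 and 8, followed by Mir1a-1 with 9 and 9. With 2 libraries such likeness rests on 2 values per gene, and many genes of like level can meet it.

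The other epithelial microRNA genes did not move as 1 group. Of 16 listed genes, all of them counted in these tables, 13 were detected and 11 tested. Of these 11, 5 were lower in replicate 2, beside 28.2% of all genes tested, 3 were higher, beside 35.3%, and 3 did not pass. Their median log2 ratio was 0.07, beside 0.01 over all genes tested. The list summed to 822 CPM in replicate 1 and 1083 in replicate 2, most of it from Mir31. Without Mir31, an alternative added after seeing the data, the other 15 genes summed to 356 and 357 CPM.

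The genes that were lower in replicate 2 with Mir200b included all 4 kidney and gut genes of the list, beside 28.2% lower among all genes tested. Mir192 had 44.4 and 6.95 CPM in replicate 1 and replicate 2, and a log2 ratio of -2.60 (adjusted p = 3.75e-21 by the exact binomial test). Mir215, a close relative of Mir192, had 101 and 5.91 CPM, with 421 and 17 counts and a log2 ratio of -4.02. Their cluster partners Mir194-2 (28.2 and 10.1 CPM, log2 ratio -1.41) and Mir194-1 (20.3 and 10.4 CPM, log2 ratio -0.89) were lower too. As genes of shared clusters, these 4 are not separate cases beside the 28.2%, and the list was chosen with earlier results known. Reads that fit several loci were not counted, so the counts of the Mir194 copies give no total level of their microRNA. Summed, the 4 kidney and gut genes gave 193 and 33.4 CPM. The 5th gene was Mir182, of sensory and secretory epithelium, with 9.55 and 4.52 CPM (log2 ratio -1.01, adjusted p = 0.0396 by the exact test), which did not pass when all 709 genes were tested (adjusted p = 0.0770 by the exact test).

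Apart from Mir182, genes of other epithelia went the opposite way, did not pass or were too low to be tested. Mir203, a skin microRNA that restrains keratinocyte growth, had 70.5 and 185 CPM (log2 ratio 1.46). Mir31, of squamous epithelium, had 466 and 726 CPM (log2 ratio 0.71), and Mir34c, a p53 target abundant in multiciliated cells, had 28.2 and 77.2 CPM (log2 ratio 1.52). All 3 were higher in replicate 2. Mir449a of multiciliated cells (21.5 CPM in each library, log2 ratio 0.07), Mir183 (11.2 and 14.6 CPM, log2 ratio 0.45) and the endocrine gene Mir375 (17.0 and 18.8 CPM, log2 ratio 0.22) did not pass. Some defining genes were near or below the limit of detection. Mir205, of basal and squamous epithelium, had 10 and 3 counts and Mir34b 7 and 4, both still detected at 1 CPM or more. Mir96 had 1 and 0 counts, and Mir449b and Mir449c none in either library.

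**Figure D4:**
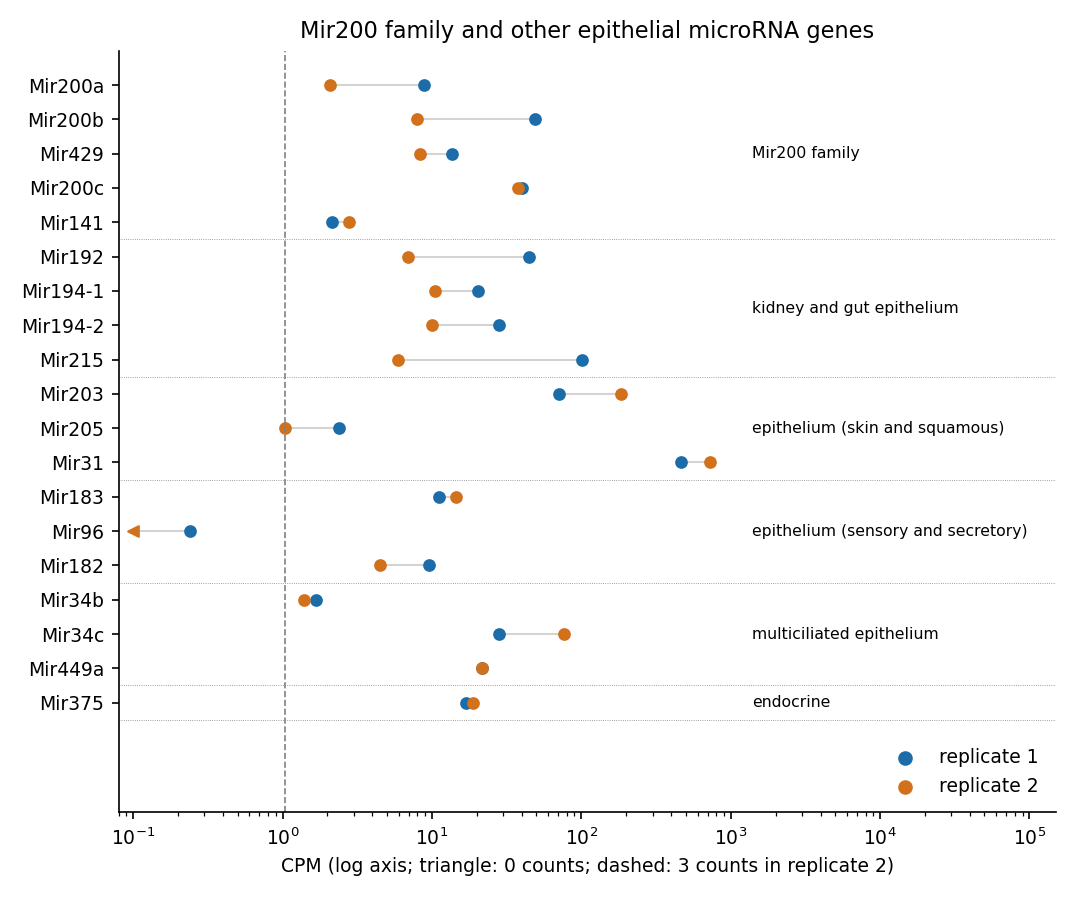
CPM (log axis) in replicate 1 (blue) and replicate 2 (orange) of the Mir200 genes and of the other epithelial genes with at least 1 count, grouped by the epithelium they mark. The kidney and gut genes, as Mir200b and Mir200a, lie to the left in replicate 2, whereas Mir203, Mir31 and Mir34c lie to the right.

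Genes that mark other cell types in the heart differed between the libraries as well, beside 63.4% of all genes tested. Among all genes tested, 28.2% were lower in replicate 2. The endothelial gene Mir126a had 174314 CPM in replicate 1 and 46780 in replicate 2 (log2 ratio -1.83) and was lower by the test. Both erythroid genes were lower too, Mir451a at 515 and 168 CPM and Mir144 at 240 and 61.9 CPM. Of 4 fibroblast genes 2 were tested. Mir214 was lower (3091 and 976 CPM), Mir199b did not pass (10.5 and 5.56 CPM), Mir199a-2 had 20 and 2 counts and Mir199a-1 none. Reads that fit several loci were not counted, so the counts of the Mir199a copies give no total level of their microRNA. Of the 4 heart muscle genes tested, Mir499 (4786 and 3618 CPM), Mir208a (1638 and 1074 CPM) and Mir208b (41.8 and 22.2 CPM) were lower, while Mir1a-2 (72.6 and 67.4 CPM) did not pass.

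Genes of other cell types were higher in replicate 2, beside 35.3% of all genes tested. Both smooth muscle genes were, Mir143 at 31249 and 50747 CPM and Mir145a at 1662 and 5588 CPM. All 4 leukocyte genes were, Mir142 at 147 and 274 CPM, Mir223 at 141.4 and 215 CPM, Mir150 at 1760 and 3029 CPM and Mir155 at 3321 and 4122 CPM. The hepatocyte gene Mir122 was higher as well, at 19.1 and 57.3 CPM. Of 6 neuronal genes 4 were at 0 in both libraries, and the list had 3 and 66 counts in all, of which Mir9-3 supplied 3 and 63. Mir9-3 fell below the filter. When all 709 genes with at least 1 count were tested, 214 differed. Mir9-3 was among them, higher in replicate 2 (log2 ratio 5.00, adjusted p = 3.3e-21 by the exact binomial test). All 6 neuronal genes are numbered copies of Mir9 or Mir124a, and reads that fit several loci were not counted. A count of 0 therefore does not show that the mature microRNA was absent. Which cells carried the Mir200 reads, and the part of tissue composition or library making in the difference of Mir200b, was not tested.

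Reads on the opposite strand of the Mir200 genes were nearly absent. Mir200b had 1 such read in replicate 1 and Mir200a 1 in replicate 2, both below the 3 counts set as that limit, and the other genes had none. Counts without regard to strand were accordingly 207 and 23 for Mir200b and 37 and 7 for Mir200a, and the counts of Mir429, Mir200c and Mir141 were the same as by strand.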

How the data were processed

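The authors deposited 1 table of unnormalized counts for each library, made on build mm10 with annotation release M21 according to the readme. No aligner is named (not given in the sources used here). Counts on the annotated strand were used; the column was identified from its values. Rows for reads assigned to no gene stayed out (42.4% and 43.2% of all reads fitted several loci, 19.0% and 17.5% were unmapped, 6.94% and 7.11% lay outside genes). All 2202 identifiers matched the annotation. Libraries were not duplicates (chi-square 830 per degree of freedom over 709 genes).

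Totals were scaled by TMM after filterByExpr with a minimum count of 10 (edgeR 4.0.16, R 4.3.3, intercept-only design). Each gene was tested with an exact binomial test, adjusted over all genes tested, threshold 0.05. The design holds 1 group, so no quasi-likelihood contrast could be fitted. Alternative size factors and dispersions came from DESeq2 1.42.0, and Python 3.11.15 with scipy 1.17.1 the exact tests. The steps were tested on simulated data. For the exact test those data held counting error alone, so they could not check its calls under the spread between these libraries. Named genes were the members, their hosts, the 2 nearest genes to each member, and listed genes with at least 10 counts in a library. Genes under that are named only for being near or below the limit of detection, chosen after their values were seen. The members and lists were chosen with earlier results of these data known. Alternatives covered strand, denominator, gene length, scaling, filters, pseudocount and leaving out each replicate. Reads from a CAST background were counted on mm10, and any effect of strain variants was not tested.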

Additional observations from a re-analysis of the deposited data

How the results depend on the processing

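Mir200b was lower in replicate 2 under all 5 alternatives tried (log2 ratio -2.70 to -2.55, adjusted p 6.72e-26 to 1.61e-22 by the exact binomial test), and Mir200c passed under none (adjusted p 0.407 to 1). Mir429 passed with DESeq2 size factors (log2 ratio -0.78), with adjusted p from 0.0407 to 0.187 over its alternatives, and Mir200a passed where no filter beyond 1 count was set (-2.01). The count of members lower in replicate 2 was 2 of 3 with DESeq2 size factors, beside 103 of all 309 genes tested. Without the filter it was 2 of 5, beside 96 of 709 genes. In the main test it was 1 of 3, beside 87 of 309. The relative changes between members and clusters kept their side of 1 without regard to strand, and the counts of other epithelial genes stayed within 1.5 times. The spread was 0.201 by DESeq2's median gene-wise dispersion instead of 0.414, for which the cause was not tested. Per 1000000 of all reads, unassigned ones included, the family stood at 27.5, Mir200c at 12.4, Mir429 at 3.50 and Mir141 at 0.788. Mir200b stood at 9.07 instead of 28.6 and Mir200a at 1.73 instead of 5.46, within their wide SDs of 29.1 and 4.77. Over unstranded counts, whose total is smaller, Mir200c stood at 52.5, Mir429 at 15.0 and Mir141 at 3.28 CPM. Per kilobase of gene the levels were 564 for Mir200c, 409 for Mir200b, 132 for Mir429, 60.7 for Mir200a and 34.2 for Mir141. Of 59 alternatives that keep both libraries and the gene lists, 42 moved no level beyond the SD of the libraries, no count by over 1.5 times and no call of a member. Leaving out a library is no test of stability with n = 2, since it leaves the value of the other. The family's level was 58.7 CPM without replicate 1 and 114 CPM without replicate 2, that of Mir200b 7.99 and 49.2, and that of Mir200a 2.09 and 8.84 CPM, in that order. No paired analysis was possible because the design holds 1 group. Depth limits Mir141 most, with 9 and 8 counts and a log2 interval of -1.13 to 1.99.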
